A study of Mus musculus with 5 samples.

Results

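Slc10a6 and the genes that move bile acids through the gut wall or sense them there were described in whole colon of mice given the IL-11 receptor agonist NT-3N and of control mice. The set held 10 genes: the SLC10 carriers Slc10a2, Slc10a3, Slc10a4, Slc10a5, Slc10a6 and Slc10a7, the exporter subunits Slc51a and Slc51b, and the receptors Nr1h4 and Gpbar1. They were chosen by name, with Slc10a6 taken as the lead because it was already known to be higher in NT-3N in these data, so their differences between the groups are a description and were not tested. All probes of these genes were used, which gave 12 of the 56605 probes of the array, with 3 for Slc10a7 and 1 for each of the other 9 genes. Each of the 12 lay well above background on every array, and all 10 genes passed the filter on dim probes, among 32917 features compared.

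Control mice (n = 2) and NT-3N mice (n = 3) were wild-type and of the strain given as C57BL/B6. The colon of the NT-3N mice was removed 3 hr after the agonist, a modified human IL-11 per the study's methods, was injected into a vein. No vehicle injection is given for the controls, so the injection and the agonist cannot be told apart. The series description and the methods give the dose in different mass units, and no sex is labeled. The NT-3N mice were 8 weeks old when injected. RNA of each mouse was labeled with Cy3 and hybridized to 1 Agilent array, and the 5 arrays shared 1 slide and 1 scan time. In whole tissue, fewer cells of a type and less RNA per cell cannot be told apart.

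Bile acids are made from cholesterol in the liver, conjugated, secreted into the gut and taken up again mainly in the terminal ileum, by the apical sodium-dependent carrier that Slc10a2 encodes. Inside the enterocyte they bind the nuclear receptor FXR, encoded by Nr1h4, and leave through the basolateral membrane by a heteromeric exporter of OSTα and OSTβ, encoded by Slc51a and Slc51b. Slc10a6 belongs to the same family by sequence but encodes SOAT, the sodium-dependent organic anion transporter, whose known cargo is sulfated steroid hormones rather than bile acids.

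Promoter sequence was looked up for these genes in RefSeq promoters of build GRCm38.p6, where 8 of the 10 had an entry, and Slc10a3 and Slc10a5 had none. The 250 bases before each annotated start were searched on both strands for TTCNNNGAA, a spacing that STAT factors can bind, TTGCGCAA, a palindrome that C/EBP factors can bind, and AGGTCA, a core hexamer of nuclear receptor sites. They were also searched for AGGTCANTGACCT, an inverted repeat of that hexamer of the kind FXR can bind, in which each arm also counts as an AGGTCA match. Of all 32851 promoters in the table, 7.02% held the first, 0.164% the second, 14% the third and 0.00609% the inverted repeat. The promoter of the lead gene and those of the exporter pair are shown, since the exporter subunits work as 1 complex. All run 5′ to 3′ on the minus strand, at chr5:103629404-103629653 for Slc10a6, chr16:32487880-32488129 for Slc51a and chr9:65422774-65423023 for Slc51b, with every match to these letters in capitals.
Slc10a6: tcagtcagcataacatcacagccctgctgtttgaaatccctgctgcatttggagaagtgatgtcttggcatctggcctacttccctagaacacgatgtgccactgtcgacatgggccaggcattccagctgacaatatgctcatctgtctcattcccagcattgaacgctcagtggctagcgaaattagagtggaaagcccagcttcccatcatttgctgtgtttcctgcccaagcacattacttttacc
Slc51a: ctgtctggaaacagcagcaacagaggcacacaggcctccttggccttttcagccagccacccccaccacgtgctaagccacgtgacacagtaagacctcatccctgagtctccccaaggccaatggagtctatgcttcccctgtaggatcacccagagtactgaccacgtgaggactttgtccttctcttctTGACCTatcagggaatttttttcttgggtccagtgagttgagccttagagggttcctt
Slc51b: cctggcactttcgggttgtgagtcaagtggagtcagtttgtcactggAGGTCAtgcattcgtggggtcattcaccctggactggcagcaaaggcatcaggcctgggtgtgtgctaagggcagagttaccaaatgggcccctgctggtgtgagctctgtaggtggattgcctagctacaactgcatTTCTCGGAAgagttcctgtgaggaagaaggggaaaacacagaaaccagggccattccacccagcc

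The Slc10a6 window held none of these letters, which says only that they are absent from these 250 bases. Slc51a held the hexamer on the reverse strand, as TGACCT, from 58 to 53 bases before the start. Slc51b held AGGTCA from 203 to 198 bases and TTCTCGGAA from 65 to 57 bases before the start. Nr1h4 held TGACCT from 214 to 209 bases before its start, and the entries of Slc10a2, Slc10a4, Slc10a7 and Gpbar1 held none of the searched letters.

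Each array had 70.6% to 72.9% of its probes well above background, no spot was saturated, and arrays correlated at 0.980 to 0.992 across features, which are not independent replicates. On every array all 9 colonic epithelium markers lay well above background. So did the small intestinal enterocyte markers Fabp2, Apoc3, Sis, Rbp2 and Alpi, though not Lct and Apoa4. Detection of these markers therefore cannot tell the gut region of the samples. Control replicate 1 stood apart in 1 respect. On it, 81 features lay at least 3 log2 units below all other arrays, against 1 to 4 such features on each of the other arrays. Their 81 spots lay in a narrow slanting band between rows 6 and 232 and columns 103 and 128 of an array of 384 rows and 164 columns. Column and row followed a line with a Pearson r of 0.933 over these spots, with no spot more than 4.43 columns from it, a strip that holds 3.19% of all noncontrol spots. Spots with the scanner's outlier flag had been left out beforehand, so none of the 81 could carry it. Their median spot signal was 30 against local backgrounds of 24 to 32. The Slc10a2 spot lay in this band, at row 103 and column 120, while the spots of the other 9 genes lay 12 to 149 spots from the nearest dark one.

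**Figure D1:**
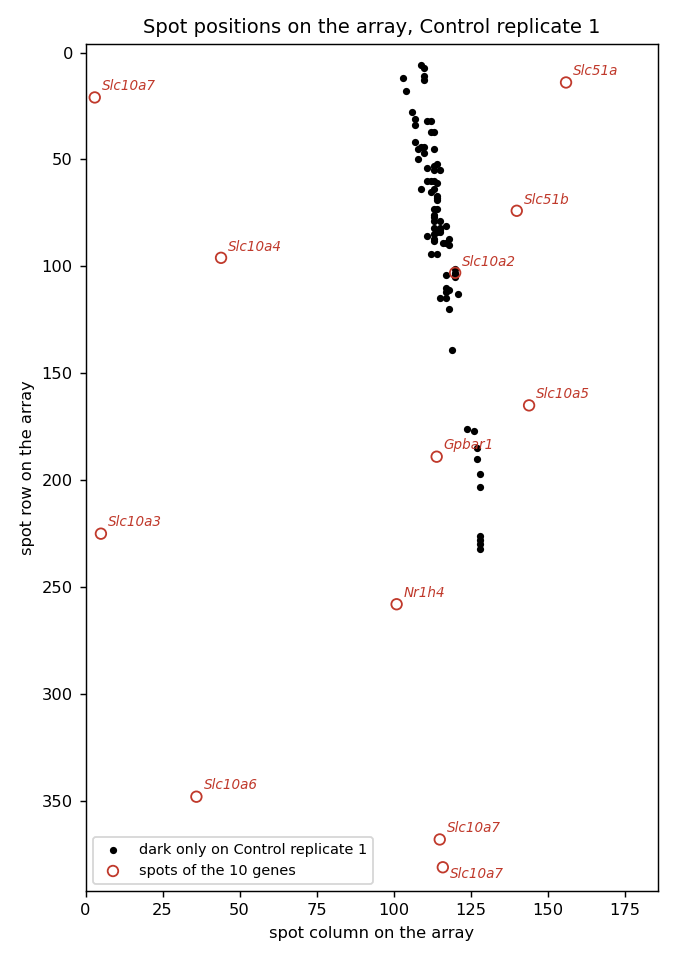
Position on the array of the 81 spots that were dark on Control replicate 1 alone (black points) and of the 12 spots of the described genes (open red circles), with spot row on the vertical and spot column on the horizontal axis. The Slc10a2 circle falls on the dark band, 1 spot from its nearest dark neighbour, and the Slc10a6 circle lies 116 spots away.

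Slc10a6, the carrier of sulfated steroids, was higher in every NT-3N mouse than in either control. Its quantile-normalized log2 signal was 5.83 and 5.30 on the control arrays and 7.86, 7.80 and 7.63 on the NT-3N arrays. The groups did not overlap and the lowest NT-3N array lay 1.80 above the highest control array. The means were 5.57 ± 0.38 (SD, n = 2) and 7.76 ± 0.12 (SD, n = 3), a difference of 2.20 with a standard error of 0.20, or 4.59-fold with a 95% interval of 3.28 to 6.42. In processed signal before scaling, the control arrays gave 53.4 and 40.2 and the NT-3N arrays 204, 256 and 207.

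The spread of Slc10a6 was thus wider between the 2 controls than among the 3 treated mice. Of all 32917 features, 100 had a larger upward difference. The probe lay among 41 tested neighbours on the slide, 0 of which were dark on Control replicate 1, and the difference was 2.20 also with the spots in and beside the band left out. Leaving out Control replicate 2 gave 1.93 and leaving out Control replicate 1 gave 2.47. Background correction by normexp, whose offset raises dim signals, gave a smaller difference of 1.34.

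**Figure D2:**
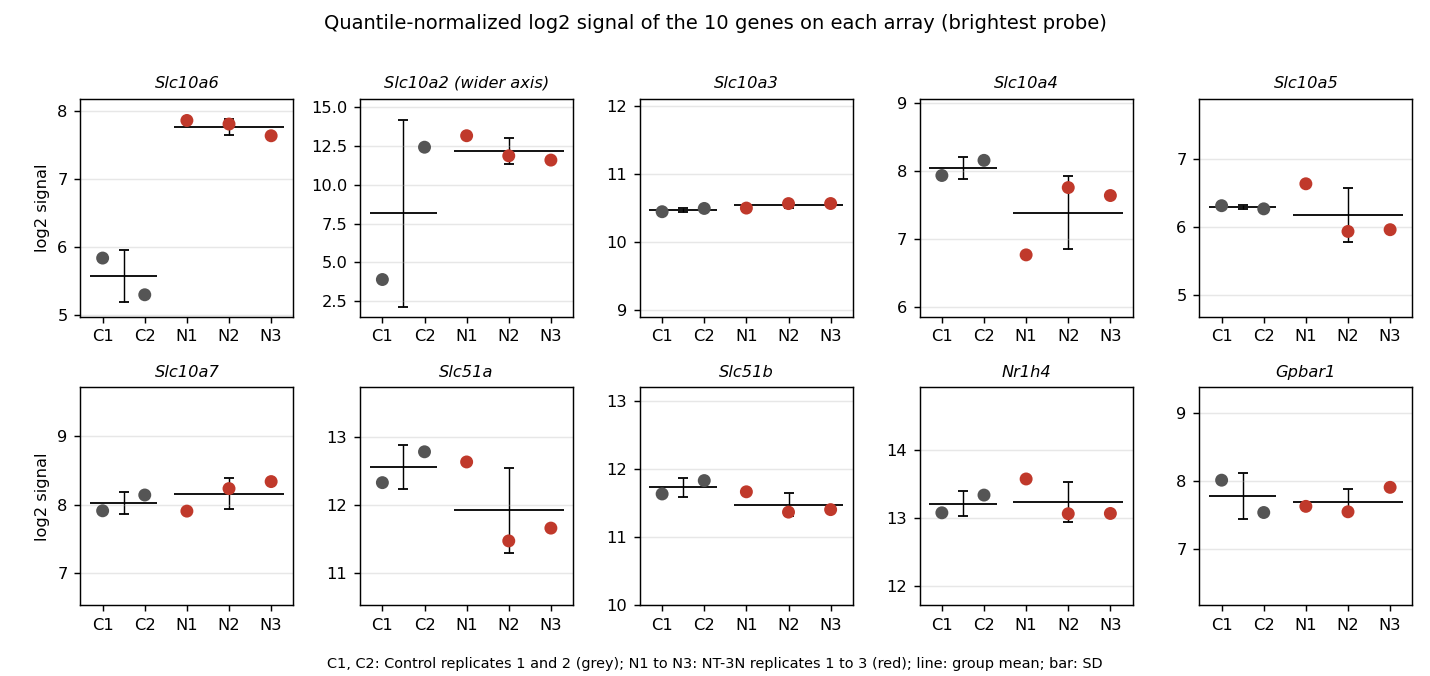
Quantile-normalized log2 signal of the 10 genes on each array, by the brightest probe, with Control in grey, NT-3N in red, a line at the group mean and a bar of 1 SD. Slc10a6 is separated between the groups by 1.80, and the Slc10a2 value of Control replicate 1 at 3.90 lies far below the other 4, on an axis wider than that of the other panels.

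Slc10a2, the apical carrier that brings bile acids into enterocytes, had a log2 signal of 3.90 and 12.41 on the control arrays and of 13.15, 11.85 and 11.58 on the NT-3N arrays. The control arrays lay 8.50 apart, a range exceeded by 0.0608% of features, and the NT-3N arrays lay on both sides of Control replicate 2. The fitted difference was 4.04 (SE 2.22, 95% interval -1.33 to 9.40). It rested on the spot in the dark band, whose median spot signal of 31 stood against a local background of 28, although the scanner flagged it as well above background.

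With the spots in and beside that band left out, a choice made after seeing the data, the Slc10a2 difference was -0.21, and it had the same value without Control replicate 1. Of the 36 tested features around its spot, 4 were dark as well. No direction is given for Slc10a2.

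The remaining carriers of the family differed by less than 1 on the log2 scale. Slc10a3, a member with no settled cargo, gave 10.44 and 10.49 in Control and 10.49, 10.56 and 10.56 in NT-3N. Every NT-3N array lay above both controls, but by only 0.0054 at the closest, and the difference of 0.074 was below its standard error of 0.089. Its 95% interval ran from -0.14 to 0.29.

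Slc10a4, which is found on synaptic vesicles of cholinergic and other neurons, gave 7.94 and 8.16 in Control and 6.77, 7.76 and 7.64 in NT-3N. All 3 NT-3N arrays lay below both controls, 0.18 at the closest, with NT-3N replicate 1 well under the others. The difference was -0.66 (SE 0.31, 95% interval -1.40 to 0.081), and it was -0.84 to -0.35 with single arrays left out, the smallest without NT-3N replicate 1. On a list of 7 enteric neuron markers, added after seeing the data, all 7 were lower and 0 were called in limma, with 0 at an unadjusted p under 0.05 and a median difference of -0.16. Their summed signal was 9687 and 11128 in Control and 6664, 9412 and 10348 in NT-3N, with NT-3N replicate 1 again lowest. The part of these cells in the Slc10a4 values was not tested.

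Slc10a5, another member with no settled cargo, gave 6.31 and 6.27 in Control and 6.63, 5.93 and 5.96 in NT-3N. The NT-3N arrays lay on both sides of the controls, and the difference was -0.11 with a 95% interval of -0.72 to 0.50. It was -0.34 without NT-3N replicate 1 and 0.0078 without NT-3N replicate 2. Slc10a7, which acts in calcium handling and in the glycosylation of proteins, was read by 3 probes. Its brightest probe gave 7.91 and 8.14 in Control and 7.90, 8.23 and 8.34 in NT-3N, a difference of 0.13 with a standard error of 0.17 that lay between 0.018 and 0.26 with single arrays left out. The groups overlapped on each of the 3 probes, and the differences of the other probes were 0.38 with a standard error of 0.39 and 0.024 with a standard error of 0.23. On the second probe NT-3N replicate 3, at 7.57, stood above the other arrays, which lay between 6.17 and 6.61.

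The exporter subunits were both lower on average in NT-3N. Slc51a, the OSTα subunit, gave 12.33 and 12.79 in Control and 12.64, 11.48 and 11.67 in NT-3N. NT-3N replicates 2 and 3 lay below both controls, while NT-3N replicate 1 lay between them. The difference was -0.63 (SE 0.35, 95% interval -1.47 to 0.21), and with single arrays left out it ranged from -0.99 without NT-3N replicate 1 to -0.41 without Control replicate 2 or NT-3N replicate 2. Slc51b, the OSTβ subunit, gave 11.63 and 11.83 in Control and 11.67, 11.37 and 11.40 in NT-3N. It showed the same order of arrays, with NT-3N replicate 1 between the controls and the other NT-3N arrays below them. Its difference was -0.25 (SE 0.13, 95% interval -0.56 to 0.049), and it was -0.16 when Control replicate 2 was left out and -0.35 when Control replicate 1 was.

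The listed markers of small intestinal enterocytes, all but Lct, also stood higher in NT-3N replicate 1 than in the other NT-3N arrays. Of 7 such markers 3, Fabp2, Rbp2 and Alpi, were highest in NT-3N replicate 1 and lay below both controls in the other NT-3N arrays. Apoa4 and Apoc3 were also highest of all arrays in NT-3N replicate 1, but their other NT-3N arrays did not both lie below the controls. In contrast, Lct had its lowest value in NT-3N replicate 1. The summed signal of the 7, of which Fabp2 alone gave 97.5% to 98.4%, was 111545 and 98799 in Control, and 126635, 66910 and 70666 in NT-3N. Of the 7, 2 were higher and 5 lower, 0 were called and 1, Lct, had an unadjusted p under 0.05, their median difference was -0.23, and Apoa4 was well above background on only 2 arrays. Fabp6, the intracellular ileal bile acid binding protein, was also highest in NT-3N replicate 1, with 10.51 and 11.30 in Control and 13.04, 10.42 and 10.47 in NT-3N. Its difference of 0.41 had a standard error of 0.80. The part of these cells in the Slc51a, Slc51b and Fabp6 values was not tested.

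The receptors of bile acids were close between the groups. Nr1h4, which encodes FXR, gave 13.08 and 13.34 in Control and 13.58, 13.07 and 13.07 in NT-3N. NT-3N replicate 1 was the highest array and the other NT-3N arrays lay just under the lower control. The difference was 0.028 (SE 0.18, 95% interval -0.40 to 0.46). Gpbar1, which encodes the membrane bile acid receptor TGR5, gave 8.02 and 7.54 in Control and 7.63, 7.55 and 7.91 in NT-3N. The controls enclosed all NT-3N arrays, and the difference was -0.081 with a 95% interval of -0.55 to 0.39.

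Of the 10 genes 5 were higher and 5 lower, against 15263 higher and 17654 lower of all features. By limma, with an adjusted p under 0.05 as the threshold, 1 of the 10 was called higher and 0 lower. Over all features 0.125% were called higher and 0.0182% lower, and since Slc10a6 was chosen for its difference nothing is read from this count. It was not among the calls with the replicate block, with no filter on dim probes, with no intensity trend, or without NT-3N replicate 2 or 3. Every NT-3N array lay above both controls for 2 of the 10, Slc10a6 and Slc10a3, as for 13.5% of all features, and below both for 1, Slc10a4, as for 14.8%. The other 7 overlapped. Of the 9 genes besides Slc10a6, 8 differed by less than 1 on the log2 scale, and the exception was Slc10a2.

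**Figure D3:**
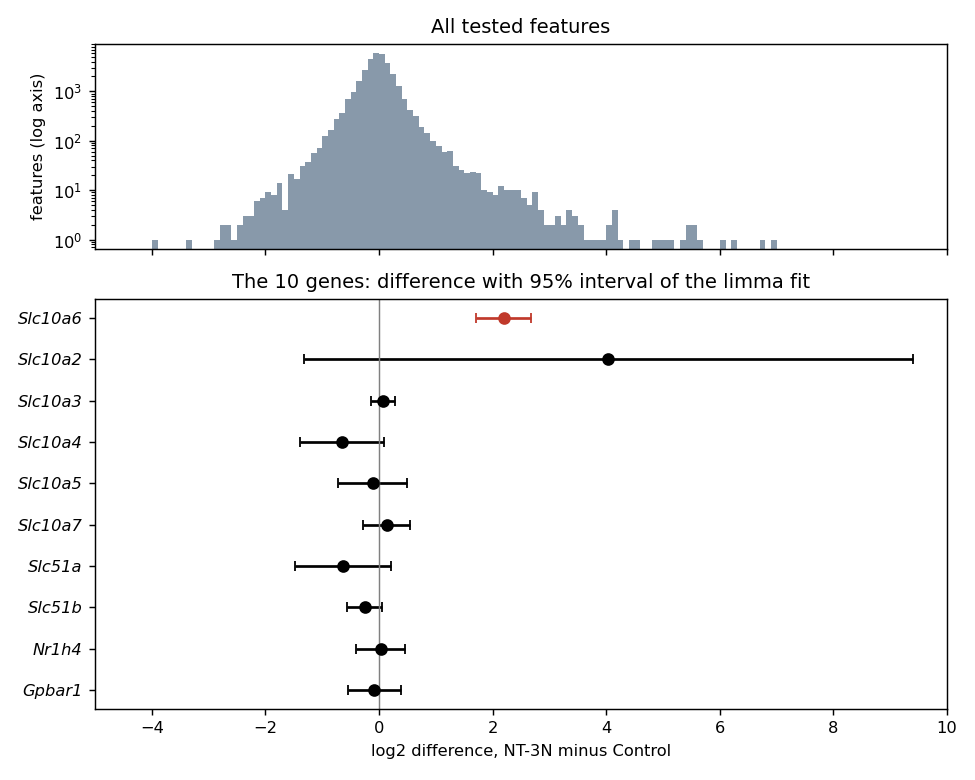
Log2 difference, NT-3N minus Control, of all 32917 features as a histogram with a log count axis (top) and of the 10 genes with the 95% interval of the limma fit (bottom). The interval of Slc10a6 (red) runs from 1.72 to 2.68 and that of Slc10a2, which rests on 1 dark spot, from -1.33 to 9.40.

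The genes with values most like those of Slc10a6 were found by the Euclidean distance between log2 values over the 5 arrays, each centered on its gene's mean, among 16733 features with a symbol and signal well above background on every array. The closest was Lrg1, which encodes a secreted leucine-rich glycoprotein, at a distance of 0.361 against a median of 2.48 over the features. It gave 8.95 and 8.69 in Control and 10.99, 10.80 and 11.03 in NT-3N. Then came Dnah17, a dynein heavy chain, at 0.423, Gfap, the intermediate filament of glia, at 0.479, Ctps, a CTP synthase, at 0.493, and Osmr, a receptor subunit for oncostatin M, at 0.495. Their differences between the groups were 2.11 for Lrg1, 2.09 for Dnah17, 1.84 for Gfap, 1.92 for Ctps and 2.09 for Osmr. Since the pattern that chose them was the difference between the groups, these are descriptions. The promoter entries of Lrg1, Dnah17, Ctps and Osmr held none of the searched letters, and that of Gfap held TGACCT from 85 to 80 bases before its start.

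**Figure D4:**
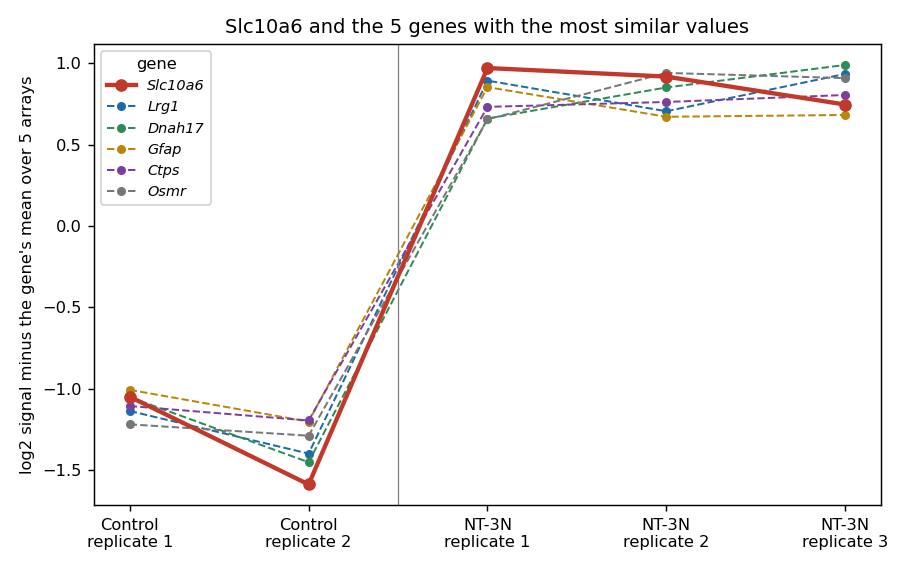
Log2 signal minus the gene's mean over the 5 arrays for Slc10a6 (thick red line) and the 5 genes closest to it by Euclidean distance (dashed lines), with Control left and NT-3N right of the grey line. Lines join the values of 1 gene and stand for no order of mice, and Slc10a6 has the lowest value of the 6 genes in Control replicate 2.

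The genes beside Slc10a6 on chromosome 5, chosen after seeing the data, did not share its difference. The 4 protein-coding genes on each side in gene order were all tested and 0 of the 8 were called in limma, with 1, Arhgap24, at an unadjusted p under 0.05. Their differences ran from -0.45 for Arhgap24 (SE 0.18, adjusted p = 0.50 in limma) to 0.20 for Ptpn13, which lies next to Slc10a6 on one side. The Arhgap24 value was -0.21 when Control replicate 2 was left out and -0.68 when Control replicate 1 was. On the other side the nearest was 1700016H13Rik, with a difference of -0.12.

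Around these 10 genes, 55 others were listed by role in bile acid or steroid sulfate handling. Of these 44 were tested, 9 were too dim to be tested and 2, Sts and Slc35b2, had no probe named. Of the 44, 17 were higher and 27 lower, with a median difference of -0.017 against -0.019 over all features. At an adjusted p under 0.05 in limma 1 was higher, Ch25h, and 0 were lower, against 0.125% and 0.0182% of all features. Ch25h was already known to be called when the lists were made, so nothing is read from this count. At an unadjusted p under 0.05 there were 3 higher and 1 lower, where 4.95% of all features were higher and 4.67% lower.

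Among genes of bile acid synthesis and conjugation, 12 of 16 were tested, with 6 higher and 6 lower and a median difference of 0.029. Ch25h, which makes 25-hydroxycholesterol, rose from 7.30 and 7.42 in Control to 9.31, 9.34 and 9.58 in NT-3N, a difference of 2.05 (SE 0.13, limma adjusted p = 0.0087). Its call was lost with no filter on dim probes, with no intensity trend, with the replicate block, and without NT-3N replicate 2 or 3, while its difference stayed between 1.76 and 2.11 over the 17 alternatives. Its spot lay in or beside the dark band of Control replicate 1. With that area left out only Control replicate 2 remained as a control for this gene, and the difference was 1.99. Ch25h was known from earlier results to be called, so no support is drawn from its adjusted p.

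Cyp7b1, the oxysterol hydroxylase of the alternative route of bile acid synthesis, gave 7.35 and 7.14 in Control and 7.81, 7.78 and 7.98 in NT-3N. Its groups did not overlap, but the difference of 0.62 did not pass (adjusted p = 0.25 in limma), and its second probe gave 0.17. Slc27a5, a bile acid CoA ligase, had a difference of -0.57 with an adjusted p of 0.50. Cyp7a1, the rate-limiting enzyme of the classical route, was well above background on 0 arrays, as were Cyp8b1, Akr1d1 and Baat.

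Of the other carriers and the binding protein 9 of 11 were tested, with 5 higher, 4 lower, 0 called, 1 at an unadjusted p under 0.05 and a median difference of 0.17. Abcc4, an exporter of conjugated organic anions, gave 8.75 and 8.72 in Control and 8.93, 9.41 and 9.28 in NT-3N. Its groups did not overlap and its difference of 0.47 had an adjusted p of 0.45. Slco1a1, an organic anion uptake carrier, had the lowest difference of the list, -0.43, with an adjusted p of 0.71. It rested on NT-3N replicate 3, without which it was -0.13. Slc10a1, the liver carrier of the same family as Slc10a6, was read by a pair of probes that disagreed on its presence. One gave 18.18 to 18.24 on all 5 arrays and the other was well above background on 0 arrays, so no level is given for it.

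Of the genes of sensing and feedback 12 of 14 were tested, with 2 higher and 10 lower, 0 called, 0 at an unadjusted p under 0.05 and a median of -0.066. The extremes were Rxrg, a retinoid X receptor, at 0.095 (adjusted p = 0.91) and S1pr2, a sphingosine 1-phosphate receptor that also binds conjugated bile acids, at -0.45 (adjusted p = 0.64), which was -0.20 without NT-3N replicate 1. Fgf15, the ileal hormone that FXR induces, and Nr0b2, the corepressor SHP, were well above background on 0 arrays.

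Of the genes listed for handling of steroid sulfate, the known cargo of SOAT, 11 of 14 were tested, with 4 higher and 7 lower. In limma 0 were called and 0 had an unadjusted p under 0.05, with a median of -0.019. Sts, the listed gene that removes the sulfate, had no probe named, and Sult1e1 was too dim to be tested. The extremes of the tested were Abcg2, an exporter of sulfated steroids, at 0.15 (adjusted p = 0.80) and Sult1d1, a sulfotransferase, at -0.20 (adjusted p = 0.87). Sult1d1 gave 12.99 and 12.86 in Control and 13.44, 12.37 and 12.35 in NT-3N, and its difference was -0.56 without NT-3N replicate 1 and -0.020 without NT-3N replicate 3. Papss2, which makes the sulfate donor, gave 15.92 and 15.52 in Control and 16.31, 15.28 and 15.27 in NT-3N. In both genes NT-3N replicate 1 was the highest array and the other NT-3N arrays lay below the controls.

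**Figure D5:**
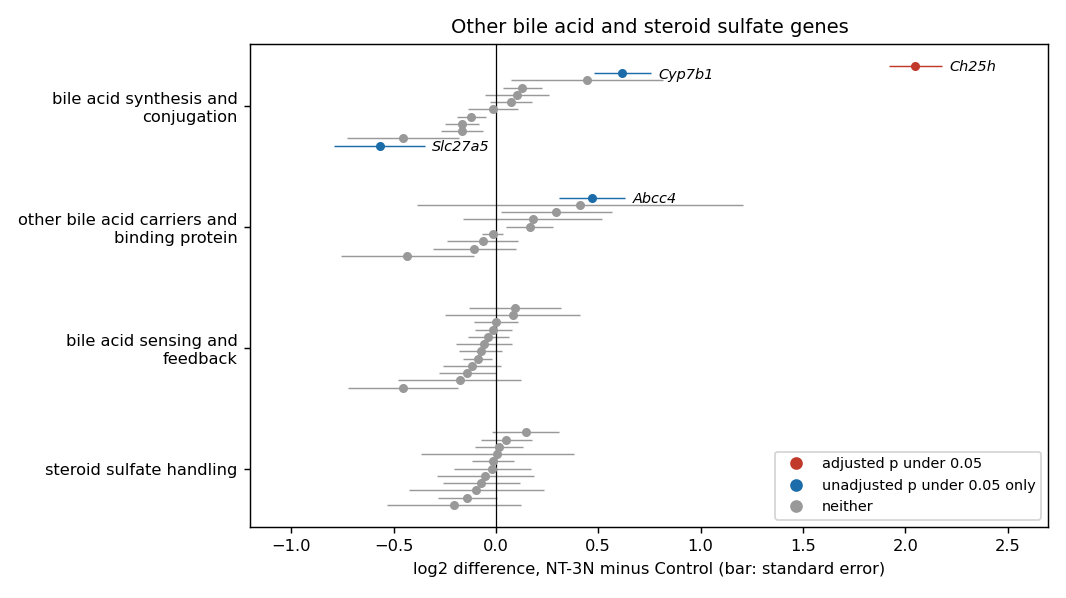
Log2 difference, NT-3N minus Control, with its standard error, of the 44 tested genes in 4 lists around the described genes. Ch25h (red, 2.05) passed an adjusted p of 0.05, Cyp7b1, Abcc4 and Slc27a5 (blue) passed only an unadjusted one, and the others (grey) passed neither.

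Cell type markers were set beside these values. Of 9 colonic epithelium markers 3 were higher and 6 lower with 0 called and 0 at an unadjusted p under 0.05, and their summed signal was 955677 and 960398 in Control and 847902 to 1007780 in NT-3N. All 7 smooth muscle markers were lower, with 0 called, 3 at an unadjusted p under 0.05 and a median of -0.25, and their sum was 469020 and 484653 in Control and 347366 to 437221 in NT-3N. Of 7 fibroblast markers 5 were higher and 0 called, with 2 at an unadjusted p under 0.05, Pdpn at 1.49 (adjusted p = 0.067) and Dcn at 0.32. Their sum was 56157 and 53018 in Control and 49621 to 69683 in NT-3N. All 6 B cell markers were higher with 0 called, 1, Ms4a1, at an unadjusted p under 0.05 and a median of 1.06, and their sum was 4763 and 1089 in Control and 4430 to 5339 in NT-3N. The Ms4a1 spot lay in or beside the dark band, and its difference was 3.65 (limma adjusted p = 0.059). With that area left out only Control replicate 2 remained as a control for it, and the difference was 2.87. It was called in 8 of 17 alternatives, some of which had a single control value for this gene. Of 7 hepatocyte markers 6 were tested, 3 higher and 3 lower with 0 called and 0 at an unadjusted p under 0.05, and Fgb was well above background on 0 arrays. The sum of the 6 was 5468 and 3049 in Control and 3638 to 3752 in NT-3N. Of 5 neutrophil markers 3 were tested, 2 higher and 1 lower with 0 called. The higher 2, S100a8 and S100a9, were well above background on 0 control arrays and on all 3 NT-3N arrays. They passed the filter on dim probes only through NT-3N, so no p is read for them. S100a9 gave 8.58, 6.23 and 6.65 in NT-3N and S100a8 gave 6.21, 4.28 and 5.15. With normexp the S100a9 difference fell from 5.59 to 1.72 and that of S100a8 from 2.67 to 0.68. The list sum, 99.4% to 100% of it Csf3r, was 78009 and 76990 in Control and 64038 to 77437 in NT-3N. Of 7 macrophage markers 3 were higher and 4 lower with 0 called and 1, Mrc1, at an unadjusted p under 0.05 (difference 0.53), and their sum was 11267 and 10641 in Control and 9019 to 12820 in NT-3N. Of 5 adipocyte markers 2 were higher and 3 lower with 0 called and 0 at an unadjusted p under 0.05, and their sum was 11990 and 6834 in Control and 3963 to 9919 in NT-3N. The part of these cells in the Slc10a6 difference was not tested.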

How the data were processed

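Whole-colon RNA of 2 Control and 3 NT-3N mice was measured on 1-color Agilent arrays, with groups taken from the labels. The authors extracted the spots with Feature Extraction 11.0.1.1 and deposited scanner files of processed intensity, spot and background intensity and flags, and a table of quantile-normalized log2 values, which was used as an alternative. Here control spots and spots flagged as outliers (69 to 184 of 59305 noncontrol spots per array) were left out, processed signals were log2-transformed, spots of a probe averaged and arrays quantile-normalized. The features compared were well above background on at least 2 arrays, and the brightest probe stood for a gene read by more than 1. Accessions were matched to RefSeq symbols for 32994 of 56605 probes. Features with a symbol numbered 17942 of 32917.

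NT-3N was set against Control in R 4.3.3 with limma 3.58.1 (lmFit, then eBayes with a trend on intensity, two-sided tests, Benjamini-Hochberg over all features), with an adjusted p under 0.05 as the threshold. The methods' local-pooled-error test was an alternative. The labels do not say how the mice were housed or paired, so p-values measure the spread between these mice only. The number of arrays limits the precision, since 10 splits into 2 and 3 allow an exact permutation p of no less than 0.1.

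The genes and lists were chosen with earlier results of these data known. Named were all 10 genes, pathway genes past an adjusted p of 0.05, the highest and lowest difference in each list among genes above background on all arrays, up to 3 genes per list past an unadjusted p of 0.05, and the 5 genes closest to Slc10a6. Fabp6, Slc10a1, Papss2, the genes beside Slc10a6, the single cell type markers and the genes listed as dim were named after their values were seen.

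The tests were tried on simulated data of the NT-3N and Control design (32910 features, 5 runs). There limma found 26.4% of the 2-fold and 70% of the 4-fold changes, with 5.12% of calls false. The local-pooled-error test, written here after its published description, found 38.4% and 80.8% with 54.2% false. The spread was drawn from limma's own fitted variance model with independent noise, and no dark band or shift in cell types was simulated. That favors limma, so its low false share was built in and the tests are not ranked by these rates. Alternatives covered scaling, background correction, the filter, the variance model, array weights, probes, the test, the replicate block and each array left out.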

Additional observations from a re-analysis of the deposited data

How the results depend on the processing

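The spots in and beside the dark band were left out as an alternative chosen after seeing the data, and the counts without overlap were also followed after seeing it; the other alternatives were planned. A fit without 1 control takes the spread of the other control from the NT-3N arrays.

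The Slc10a6 difference kept its sign in all 17 alternatives and lay between 1.34, with normexp, and 2.47. Leaving out single arrays gave 1.93 to 2.47. The features called, 41 higher and 6 lower, numbered 2 and 0 with no filter on dim probes and again 2 and 0 with no intensity trend, where limma gave 3941 and 3075 features an unadjusted p under 0.05. They numbered 122 and 45 with array quality weights and 192 and 156 with the local-pooled-error test. The lower calls were 11 with the deposited log2 values, 13 where every array had to be above background, 12 with every probe tested and 12 with the band left out. With single arrays left out the higher calls ranged from 0 (without NT-3N replicate 3) to 114 (without Control replicate 2), and the range of the lower calls was 0 to 16 (without NT-3N replicate 1). Without NT-3N replicate 3 limma had 2384 features at an unadjusted p under 0.05. Slc10a6 was chosen for its difference, so nothing is read from whether it was called in the alternatives.

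At an unadjusted p under 0.05 and 2-fold, 261 features were higher and 168 lower. These became 85 and 36 with normexp, 173 and 83 with the deposited log2 values and 173 and 87 where probes had to be above background on every array, and the lower count was 329 with no filter. Without each array in turn they ranged from 239 to 434 and from 175 to 292. Features without overlap, 4450 above and 4887 below, ranged from 5873 to 8345 and from 6347 to 9184, as follows from fewer arrays.

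The 1 pathway gene called, Ch25h, was 0 with no filter, no intensity trend and the replicate block, and ranged from 0 to 1 without each array. Among named pathway genes Rxrg, which ranged up to 0.20 without NT-3N replicate 1, turned lower with the local-pooled-error test (-0.064), the replicate block (-0.092) and without NT-3N replicate 3 (-0.092), and Abcg2 without Control replicate 2 (-0.020), against 0.31 without Control replicate 1. Of the 10 genes, Slc10a2 changed sign in 2 alternatives, Slc10a5 in 1 (0.0078 without NT-3N replicate 2), Nr1h4 in 4 (in a range of -0.14 to 0.16) and Gpbar1 in 1 (0.16 without Control replicate 1). The cause was not tested.

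The labels do not say whether mice of the same replicate number were paired. Deviations from the group means correlated at 0.13 and 0.036 over 2 pairs. The deviations of the 2 controls mirror each other, so these values are not independent and cannot settle the pairing. The replicate block left 0 higher and 0 lower calls in limma, where 2488 features had an unadjusted p under 0.05, and the Slc10a6 difference was 2.26.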
